A study of Mus musculus with 12 samples.

Results

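The cytochrome P450 genes of families 1 to 4 (Cyp1 to Cyp4) were followed in the colon of wild-type and Parp1-/- mice given plain water or dextran sulfate sodium (DSS), which damages the lining of the colon. Members were the genes named Cyp1 to Cyp4 by a subfamily letter and a number, read from probe sets that carry exactly 1 gene symbol, with pseudogenes left out. The rule found 71 of the 21314 genes measured: 3 of family 1, 47 of family 2, 6 of family 3 and 15 of family 4. Of these, 68 rested on 1 probe set, and Cyp2c29, Cyp2c55 and Cyp2f2 on the mean of 2. No filter on low values was applied, so all 71 were tested.

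Whole-colon RNA of 12 mice went onto Affymetrix arrays, 1 array each. Each genotype had 3 mice on plain water and 3 that drank 4% DSS for 7 days. All mice were 6 to 8 weeks old and kept in a conventional facility. The Parp1-/- mice carry a constitutive knockout of Parp1, a DNA damage sensor that modifies proteins with poly(ADP-ribose). Strain, sex, litter and any batch are not given in the labels. The deposited log2 values had been centred probe set by probe set, with a median of 0. A gene can therefore be compared between arrays, while levels of different genes cannot be compared and 0 is not absence. Base 2, and larger values for more RNA, were assumed. In RNA of a whole organ, fewer cells of a type and less RNA per cell cannot be told apart.

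Cytochromes P450 are heme enzymes of the endoplasmic reticulum that insert an oxygen atom into their substrate, using electrons passed on by P450 reductase and cytochrome b5. Enzymes of families 1 to 3 are known for oxidising drugs, dietary compounds and pollutants, under the control of the receptors Ahr, PXR (Nr1i2) and CAR (Nr1i3), while many members of families 2 and 4 act on arachidonic acid, leukotrienes and other fatty acids. The liver holds most P450 enzyme of the body, and the gut epithelium carries a set of its own that meets food and bacterial compounds before they are absorbed.

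The promoters of 5 members are shown because these genes were called higher after DSS in wild-type mice, 4 of them also in Parp1-/- water mice. They come from RefSeq, assembly GRCm38.p6, and run 5′ to 3′ on the strand of the gene from 250 bases before the transcription start to 50 bases after it, so each window ends in the first exon. Of the 71 members, 59 were found in that promoter table. Capitals mark TATAAA, the TATA box letters, or GCGTG, the core letters bound by Ahr with Arnt, each searched on both strands.
Cyp2e1, chr7:140763569-140763868, plus strand: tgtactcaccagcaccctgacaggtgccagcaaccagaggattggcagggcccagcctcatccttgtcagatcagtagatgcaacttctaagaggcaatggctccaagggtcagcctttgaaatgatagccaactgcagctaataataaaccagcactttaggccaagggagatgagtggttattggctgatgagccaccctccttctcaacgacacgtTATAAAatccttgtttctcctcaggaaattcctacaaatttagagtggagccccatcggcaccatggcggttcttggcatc
Cyp2c55, chr19:39006769-39007068, plus strand: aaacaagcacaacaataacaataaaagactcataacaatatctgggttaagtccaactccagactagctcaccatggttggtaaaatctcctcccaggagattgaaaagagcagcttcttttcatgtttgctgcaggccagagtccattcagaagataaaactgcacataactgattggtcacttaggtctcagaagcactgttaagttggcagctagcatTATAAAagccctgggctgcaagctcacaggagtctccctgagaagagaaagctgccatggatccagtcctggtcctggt
Cyp3a13, chr5:137921570-137921869, minus strand: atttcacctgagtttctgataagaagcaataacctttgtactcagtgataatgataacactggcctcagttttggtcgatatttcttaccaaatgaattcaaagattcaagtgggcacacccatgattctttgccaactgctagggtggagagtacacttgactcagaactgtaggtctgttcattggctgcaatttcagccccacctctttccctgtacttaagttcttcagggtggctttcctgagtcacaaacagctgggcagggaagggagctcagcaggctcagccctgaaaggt
Cyp4f14, chr17:32917307-32917606, minus strand, from 1 of 4 listed starts: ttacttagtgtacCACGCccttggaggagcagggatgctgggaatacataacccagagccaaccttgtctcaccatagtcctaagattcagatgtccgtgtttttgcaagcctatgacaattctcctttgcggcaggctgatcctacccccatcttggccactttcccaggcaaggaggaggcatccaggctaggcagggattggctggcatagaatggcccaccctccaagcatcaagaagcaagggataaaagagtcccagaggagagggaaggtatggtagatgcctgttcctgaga
Cyp4v3, chr8:45333114-45333413, minus strand: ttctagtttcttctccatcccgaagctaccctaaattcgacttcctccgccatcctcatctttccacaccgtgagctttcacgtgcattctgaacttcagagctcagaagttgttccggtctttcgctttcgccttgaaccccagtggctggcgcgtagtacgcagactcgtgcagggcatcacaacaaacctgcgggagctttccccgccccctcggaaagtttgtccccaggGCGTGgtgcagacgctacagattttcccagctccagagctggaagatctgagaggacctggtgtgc
Cyp2e1 and Cyp2c55 held TATAAA with its first base 31 and 29 bases before the start. Cyp4v3 held GCGTG 16 bases before the start, Cyp4f14 held it on the opposite strand 237 bases before the start, and the Cyp3a13 window held neither motif. TATAAA was found in 23 of the 59 member promoters (39%) and in 15.7% of 27025 gene promoters. GCGTG was found in 14 of the 59 (23.7%) and in 35.2% of all. The letters CAAAGTCCA, a binding sequence of Hnf4a, were found in 6 member promoters (10.2%), those of Cyp2c40, Cyp2c65, Cyp2c68, Cyp2c69, Cyp2c70 and Cyp3a11, and in 0.555% of all. These neighbouring Cyp2c genes share ancestry, so their promoters are not separate observations. GTTAAT, letters of the Hnf1 site, was found in 7 member promoters (11.9%) and in 8.24% of all.

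Some arrays stood apart from the rest of the series. The mean of 16 housekeeping genes was between -1.75 and -0.90 in the 3 wild-type water arrays and wild-type DSS 1, against -0.01 to 0.42 in the other 8. The median of 1042 smell and pheromone receptor genes was 0.38 to 0.41 in the same 4 arrays and -0.12 to 0.05 in the other 8. In the comparison of the genotypes in water this difference cannot be told apart from genotype. In the DSS comparison of wild-type mice the overlap is partial, because wild-type DSS 1 shares it with the water arrays. Markers of smooth muscle averaged 2.75 to 2.81 in 3 Parp1-/- arrays (water 2, water 3 and DSS 1), against -0.59 to 0.12 elsewhere. Parp1 lay between -0.22 and 0.03 in the Parp1-/- arrays. It lay above that range in 4 of the 6 wild-type arrays, at 0.01 in wild-type DSS 1, and at -0.41 in the array labelled wild-type water 1, below every Parp1-/- array. The sources used here do not place the Parp1 probes on the gene, so the check of the labels is weak. The mean of 8 hepatocyte markers stayed between -0.39 and 0.24 in all 12 arrays. The mean of 12 colonocyte markers was -1.43 to -1.39 in wild-type water and -0.69 to 0.51 elsewhere, and centred values do not show whether such markers are present.

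**Figure D1:**
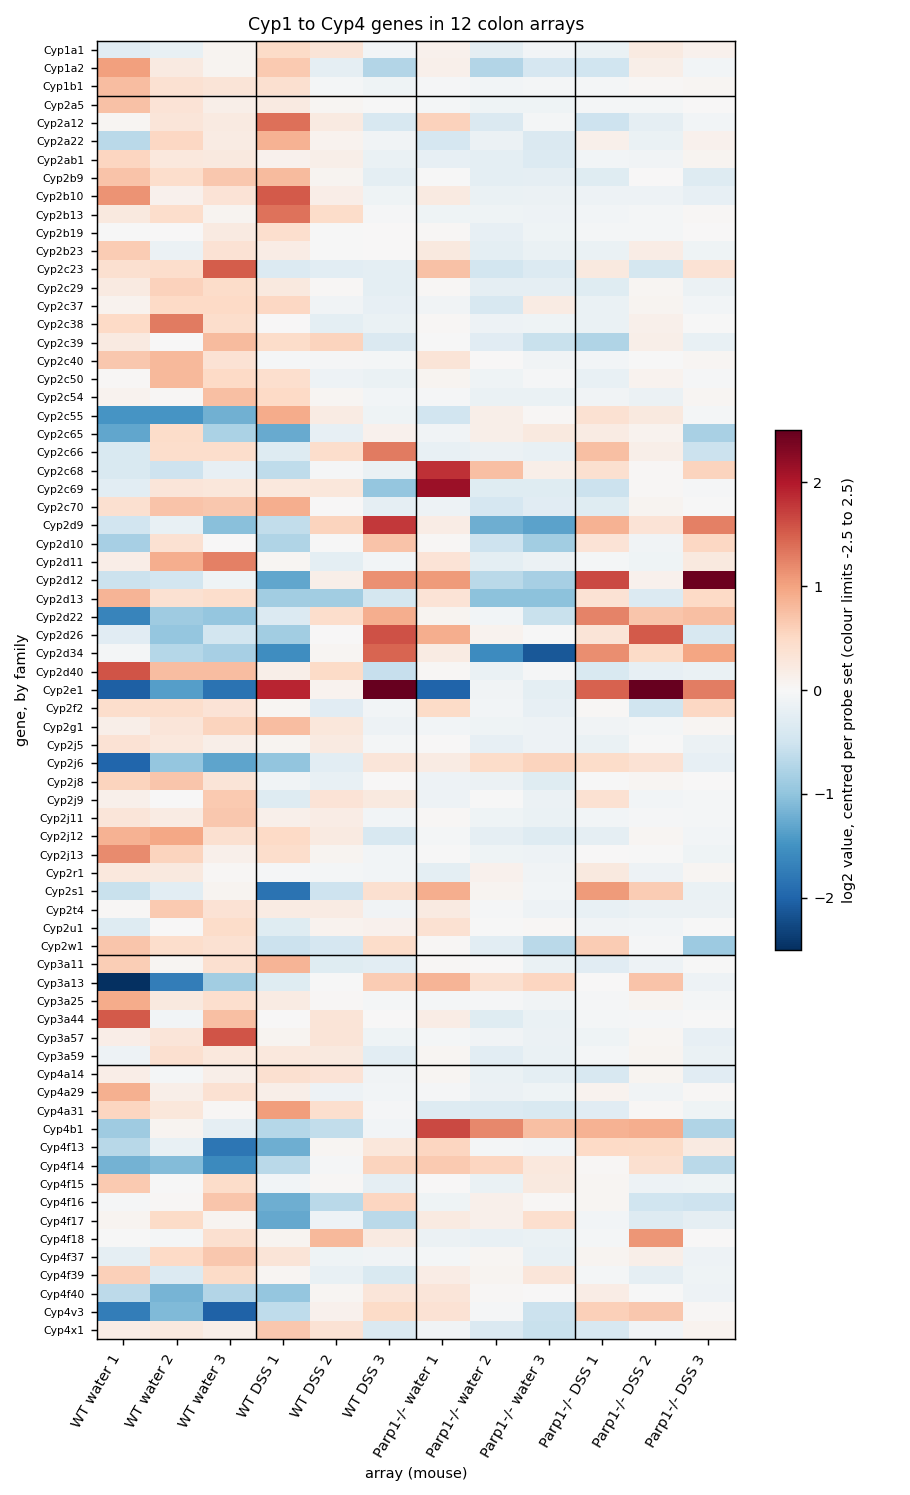
Centred log2 values of the 71 genes (rows, by family) in the 12 arrays (columns, by group), with the colour scale capped at both ends. Cyp2e1 and Cyp3a13 are low in the wild-type water columns, and Cyp2e1 is high in most DSS columns.

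In wild-type mice DSS was followed by higher values of 6 members and lower values of 6 others. Cyp2e1, Cyp3a13, Cyp2c55, Cyp4v3, Cyp2d22 and Cyp4f14 rose, and Cyp2d13, Cyp2d40, Cyp4f17, Cyp2c38, Cyp2c40 and Cyp2j8 fell, at a limma adjusted p under 0.05. These 12 calls were 16.9% of the members, against 13.0% of all genes. The 6 that rose stand against 8.89% of all genes and the 6 that fell against 4.16%. Of the 1042 smell and pheromone receptor genes, not a P450 group, 98 (9.4%) were also called lower here, with a median of -0.325. The median difference of the 71 members was -0.22 and that of all genes -0.05, with 27 members and 45.8% of all genes above 0. Called higher in the same comparison were 8 of 12 colonocyte markers (median 1.73), 5 of 7 goblet cell markers (1.66) and 9 of 16 housekeeping genes (1.21). The part of these shifts in the P450 calls was not tested. The 3 DSS arrays lay wholly above the water arrays in 6 members (11.4% of all genes) and wholly below in 14 (12.2%), 23.6% of all genes taking both directions together. An unadjusted p under 0.05 was reached by 22 members and by 30.1% of all genes. Leaving out wild-type DSS 1 gave 23 calls, against 32.2% of all genes, and the receptor median as a covariate gave 7, against 10.4%. In all 12 called members the DSS and water arrays of wild-type mice did not overlap. The 12 were picked by calls on these same arrays. The place of wild-type DSS 1, which shares the array difference with the water group, is therefore no separate observation. None of the 12 kept its call after quantile normalization, and Cyp2c55 and Cyp4f17 kept it with the receptor covariate. Cyp2d13 kept its call in 1 of the 6 fits that leave out 1 array, and Cyp4f14, Cyp2c40 and Cyp4f17 in 2. Cyp2c38 and Cyp2d40 kept theirs in 4, Cyp4v3, Cyp2d22 and Cyp2j8 in 5, and Cyp2c55, Cyp2e1 and Cyp3a13 in all 6.

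**Figure D2:**
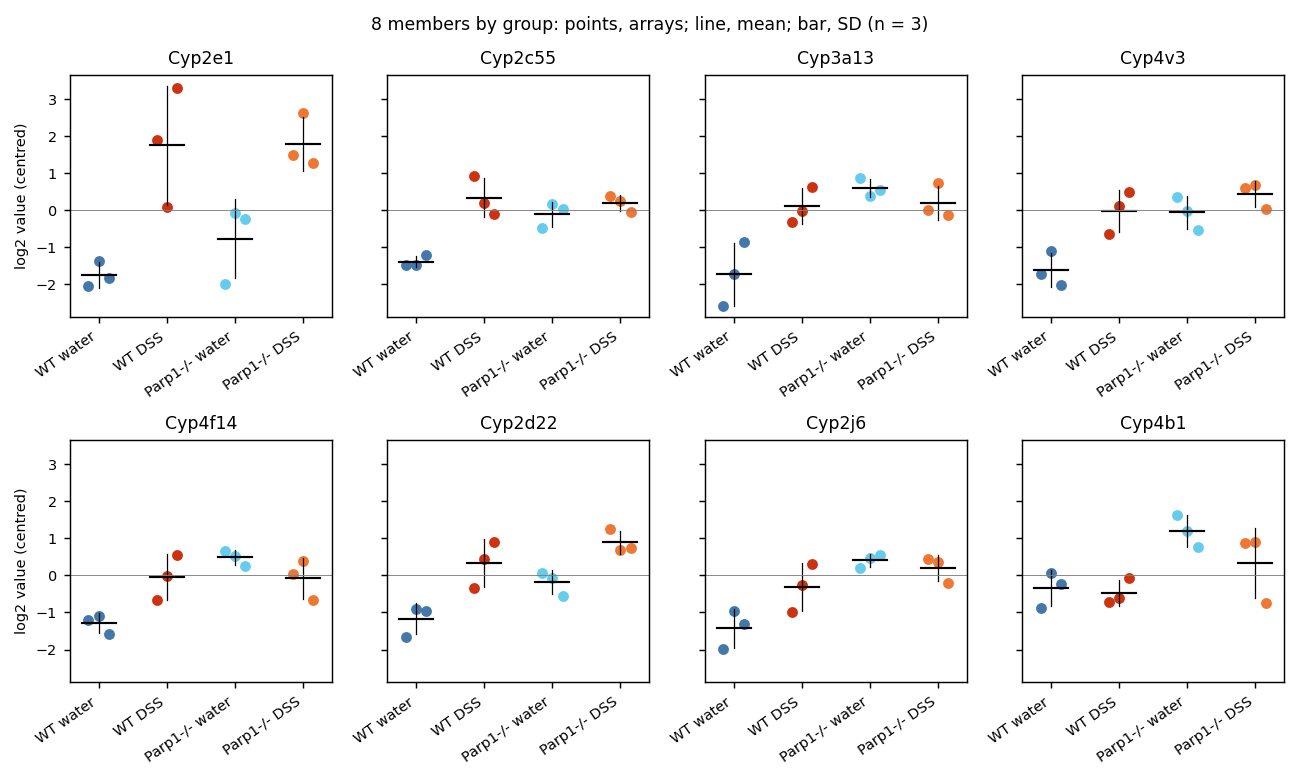
Centred log2 values of 8 members by group (points, arrays; line, mean; bar, SD; n = 3 mice). In Cyp2e1, Cyp2c55, Cyp3a13, Cyp4v3, Cyp4f14 and Cyp2d22 the wild-type DSS points lie above the wild-type water points, while the Cyp4b1 points separate by genotype in water.

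Cyp2e1, which oxidises ethanol and other small molecules and releases reactive oxygen, had the largest change of any member. Its values were -2.04, -1.37 and -1.84 on water and 1.90, 0.08 and 3.29 on DSS in wild-type mice, and -2.00, -0.08 and -0.24 on water and 1.48, 2.63 and 1.28 on DSS in Parp1-/- mice. In both genotypes every DSS array lay above every water array. The group means were -1.75 ± 0.34 (SD, n = 3) and 1.76 ± 1.61 in wild-type mice and -0.78 ± 1.07 and 1.80 ± 0.73 in Parp1-/- mice. Cyp2e1 rose by 3.51 ± 0.73 (SE) in wild-type mice, with a limma adjusted p of 0.0101. The Parp1-/- mice had a difference of 2.57 ± 0.73 that was not called, with an adjusted p of 0.875 and an unadjusted p of 0.00447, and of 3.96 ± 1.08 without the 3 arrays of high smooth muscle genes, a fit that leaves 1 Parp1-/- water array, the lowest of the 3. The 2 responses differed by -0.94 ± 1.03 (Parp1-/- minus wild type, adjusted p of 0.65). After quantile normalization the wild-type difference was 2.59 with an adjusted p of 0.0972, and with the per-array receptor median as covariate it was 2.92 with an adjusted p of 0.09.

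Markers of fat cells, which whole colon can carry in attached mesenteric fat, were high or low in several of the same arrays. The mean of 6 of 7 adipocyte markers was -1.16, -1.54 and -0.41 on water and 0.15, -0.89 and 0.85 on DSS in wild-type mice. It was -1.66, 0.41 and -0.00 on water and 0.35, 0.98 and 0.23 on DSS in Parp1-/- mice. The array lowest in Cyp2e1 outside the wild-type water group, Parp1-/- water 1, was also the lowest in adipocyte markers. Other arrays did not match: Parp1-/- water 2 was above Parp1-/- DSS 1 and 3 in these markers and below both in Cyp2e1 (-0.08 against 1.48 and 1.28). None of the 6 markers was called for DSS in either genotype, and the fatty acid carrier Fabp4 had the largest difference of them in wild-type mice, at 2.95 ± 1.05 with an adjusted p of 0.0883. The part of fat tissue in the Cyp2e1 difference was not tested.

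**Figure D3:**
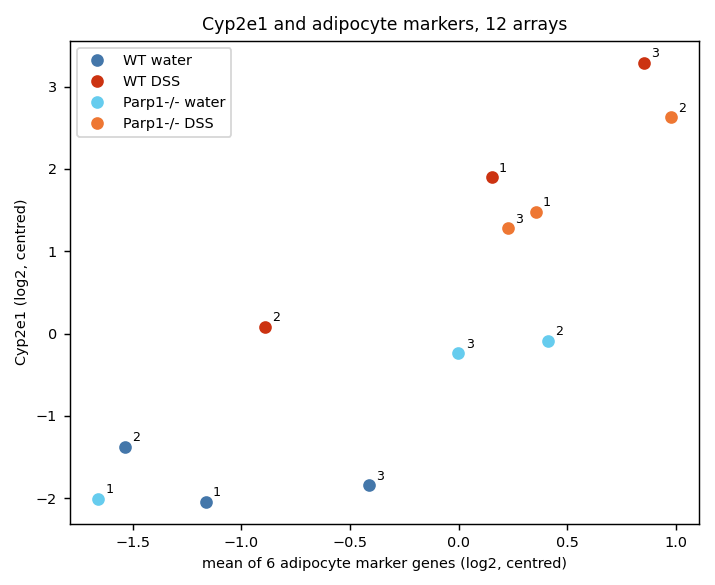
Cyp2e1 (y axis, centred log2) against the mean of 6 adipocyte marker genes (x axis, centred log2) in the 12 arrays, numbered within groups. Wild-type DSS 3 and Parp1-/- DSS 2 are high on both axes, and Parp1-/- water 1 and the wild-type water arrays are low on Cyp2e1. Parp1-/- water 2 lies to the right of Parp1-/- DSS 1 and 3 and below them.

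Among the Cyp2c genes, Cyp2c55, an arachidonic acid hydroxylase found in mouse colon, had the smallest p of any member after DSS. Its values were -1.48, -1.48 and -1.21 on water and 0.92, 0.20 and -0.11 on DSS in wild-type mice, and -0.49, 0.15 and 0.02 on water and 0.39, 0.24 and -0.06 on DSS in Parp1-/- mice. The 3 wild-type water arrays lay below the other 9, which overlapped one another. Cyp2c55 rose by 1.73 ± 0.26 in wild-type mice, with an adjusted p of 0.00188, and was called without any 1 of the 6 arrays and with the receptor median as a covariate, though not after quantile normalization (0.93, adjusted p of 0.22). Its DSS difference in Parp1-/- mice was 0.30 (adjusted p of 1). The 2 probe sets disagreed: 1 gave 2.29 with an adjusted p of 3.25e-05, and the other 1.16 with an adjusted p of 0.131. The difference of the DSS responses was -2.31 (adjusted p of 0.00126) on the former and -0.56 (adjusted p of 0.69) on the latter.

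The other Cyp2c genes lie with Cyp2c55 in 1 row of 13 members on chromosome 19, apart from Cyp2c23. They differ little in sequence, so probes may read several of them and their values are uncertain. After DSS in wild-type mice 1 of the 14 Cyp2c genes rose and 2 fell. Cyp2c38, an arachidonic acid oxidase, read 0.51, 1.30 and 0.43 in water and 0.01, -0.24 and -0.16 in DSS, and fell by 0.88 ± 0.22 with an adjusted p of 0.0228. Cyp2c40, which also oxidises arachidonic acid, read 0.67, 0.80 and 0.37 in water and -0.03, -0.04 and -0.05 in DSS, and fell by 0.65 (adjusted p of 0.0229). In both genes the DSS arrays lay below the water arrays, and their DSS differences in Parp1-/- mice were 0.05 and -0.09. Cyp2c65 and Cyp2c66, further arachidonic acid oxidases of the intestine, were not called in any comparison. Cyp2c65 read -1.31, 0.47 and -0.80 on water and -1.27, -0.20 and 0.10 on DSS in wild-type mice, with a difference of 0.09 ± 0.46, and Cyp2c66 had a difference of 0.31 ± 0.41. The groups overlapped in both genes.

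Cyp3a13, a drug-oxidising enzyme of the intestine, was the only 1 of the 6 Cyp3a genes called after DSS. Its values were -2.59, -1.74 and -0.87 on water and -0.31, -0.02 and 0.64 on DSS in wild-type mice, and 0.86, 0.39 and 0.53 on water and 0.02, 0.72 and -0.13 on DSS in Parp1-/- mice. The wild-type water arrays were the lowest 3 of the 12. Cyp3a13 rose by 1.84 ± 0.40 in wild-type mice (adjusted p of 0.0128) and was called without any 1 array. It was not called after quantile normalization (adjusted p of 0.219), with only the arrays compared (0.0822), with the receptor covariate (0.109) or without the 3 arrays of high smooth muscle genes (0.0586). Its difference in Parp1-/- mice was -0.39 ± 0.40 (adjusted p of 1), and the 2 responses differed by -2.23 ± 0.57 with an adjusted p of 0.0672. The other 5 Cyp3a genes lie in 1 row on chromosome 5 and none was called for DSS in either genotype. Cyp3a11, the main PXR target of liver and gut, was at -0.25 ± 0.28 in wild-type mice and -0.10 ± 0.28 in Parp1-/- mice. Cyp3a25 was at -0.47 ± 0.18 (adjusted p of 0.105) in wild-type mice.

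Of the 15 members of family 4, Cyp4v3 and Cyp4f14 rose after DSS in wild-type mice and Cyp4f17 fell. Cyp4v3, a fatty acid hydroxylase whose human counterpart is altered in an inherited crystalline disease of the retina, read -1.72, -1.10 and -2.03 on water and -0.64, 0.11 and 0.48 on DSS in wild-type mice. In Parp1-/- mice it read 0.37, -0.02 and -0.53 in water and 0.60, 0.68 and 0.02 in DSS. The wild-type water arrays again lay below the other 9. Cyp4v3 rose by 1.60 ± 0.34 (adjusted p of 0.0124) in wild-type mice and was 0.50 higher (adjusted p of 1) in Parp1-/- mice.

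Cyp4f14, which inactivates leukotriene B4, read -1.19, -1.08 and -1.59 on water and -0.67, -0.03 and 0.56 on DSS in wild-type mice, and 0.66, 0.54 and 0.27 on water and 0.03, 0.40 and -0.67 on DSS in Parp1-/- mice. In wild-type mice DSS lay above water without overlap, and in Parp1-/- mice the groups overlapped. It rose by 1.24 ± 0.33 in wild-type mice (adjusted p of 0.0304) and was at -0.57 ± 0.33 in Parp1-/- mice. Cyp4f17 read 0.06, 0.47 and 0.06 on water and -1.28, -0.13 and -0.67 on DSS in wild-type mice, and 0.23, 0.13 and 0.43 on water and -0.06, -0.32 and -0.23 on DSS in Parp1-/- mice. It was the only member in which DSS lay below water in both genotypes. Over all genes DSS lay below water in 12.2% in wild-type and 4.70% in Parp1-/- mice, and the share in both was not computed. The fall of Cyp4f17 was called in wild-type mice alone (-0.89 ± 0.26, adjusted p of 0.0418, against -0.47 in Parp1-/- mice). The difference between those 2 responses was not called.

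Cyp4f18, the leukotriene B4 hydroxylase of neutrophils, read -0.00, -0.04 and 0.40 on water and 0.07, 0.81 and 0.23 on DSS in wild-type mice. In Parp1-/- mice it read -0.14, -0.19 and -0.16 in water and -0.06, 1.10 and 0.00 in DSS. It was not called, at 0.25 ± 0.30 and 0.51 ± 0.30, DSS lay above water in Parp1-/- mice, and in each genotype DSS 2 was the highest array. The mean of 7 neutrophil markers was highest in the same arrays, at 1.59 in wild-type DSS 2 and 1.09 in Parp1-/- DSS 2. The part of neutrophils in the Cyp4f18 values was not tested. Cyp4f16, at -0.68 ± 0.38 and -0.34 ± 0.38, was not called, nor was Cyp4x1, at 0.03 ± 0.25 and 0.20 ± 0.25. Cyp4a10, a target of PPAR-alpha, was not among the members because its probe sets carry several symbols.

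The Cyp2d genes, mostly liver oxidases of drugs and steroids, lie (8 of the 9 placed) in 2 rows of 4 on chromosome 15 and differ little in sequence, so their values too may be shared between copies. Cyp2d22, proposed as the mouse counterpart of human CYP2D6, read -1.65, -0.89 and -0.96 on water and -0.35, 0.44 and 0.91 on DSS in wild-type mice, and 0.06, -0.06 and -0.56 on water and 1.24, 0.69 and 0.75 on DSS in Parp1-/- mice. Besides Cyp2e1 it was the only member in which DSS lay above water in both genotypes. Over all genes DSS lay above water in 11.4% in wild-type and 7.82% in Parp1-/- mice, and the share in both was not computed. Cyp2d22 rose in wild-type mice from a mean of -1.17 ± 0.42 (SD, n = 3) to 0.34 ± 0.64, with a limma adjusted p of 0.0128. Its difference in Parp1-/- mice was 1.08 ± 0.33, with an unadjusted p of 0.00677 and an adjusted p of 1, and the 2 responses differed by -0.42 ± 0.46. Without the 3 arrays of high smooth muscle genes the Parp1-/- difference was 0.66 ± 0.52, with 1 water array left.

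Of the 9 Cyp2d genes, 2 fell after DSS in wild-type mice. Cyp2d13 read 0.86, 0.39 and 0.44 on water and -0.86, -0.88 and -0.44 on DSS in wild-type mice, and 0.34, -1.03 and -1.02 on water and 0.36, -0.34 and 0.49 on DSS in Parp1-/- mice. It fell by 1.29 ± 0.36 (adjusted p of 0.0369) in wild-type mice and was at 0.74 in Parp1-/- mice, where the groups overlapped. The difference of the responses, 2.03 ± 0.50, had the smallest adjusted p of any member, 0.0627, and was 1.02 ± 0.50 without the 3 arrays of high smooth muscle genes, with 1 Parp1-/- water array left. Cyp2d40 read 1.57, 0.78 and 0.77 on water and 0.14, 0.47 and -0.58 on DSS in wild-type mice, without overlap, and fell by 1.03 ± 0.28 (adjusted p of 0.0327).

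After DSS in Parp1-/- mice 8 of the 9 Cyp2d genes, with a median of 0.74, and 53.1% of all genes lay above 0. None of the 9 was called, and as their values may be shared between copies they are not 9 separate observations. Cyp2d34 read 0.21, -1.58 and -2.12 on water and between 0.47 and 1.16 on DSS in those mice, a difference of 2.04 ± 0.70 with an unadjusted p of 0.0141 and an adjusted p of 1. Cyp2d9 read 0.19, -1.21 and -1.33 on water and 0.86, 0.35 and 1.26 on DSS in Parp1-/- mice, a difference of 1.61 ± 0.56 that was not called either. In both genes DSS lay above water, and the low values were in Parp1-/- water 2 and 3, the 2 water arrays of high smooth muscle genes. Parp1-/- DSS 1, the DSS array of high smooth muscle genes, read 1.16 in Cyp2d34 and 0.86 in Cyp2d9. The part of smooth muscle in the values of these 2 genes was not tested. Without the 3 arrays of high smooth muscle genes the differences were 0.52 ± 0.97 and 0.62 ± 0.83, and both rest on 1 remaining water array, Parp1-/- water 1, the highest of the 3. In wild-type mice the 3 DSS arrays of Cyp2d34 spread from -1.56 to 1.45 and overlapped water.

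**Figure D4:**
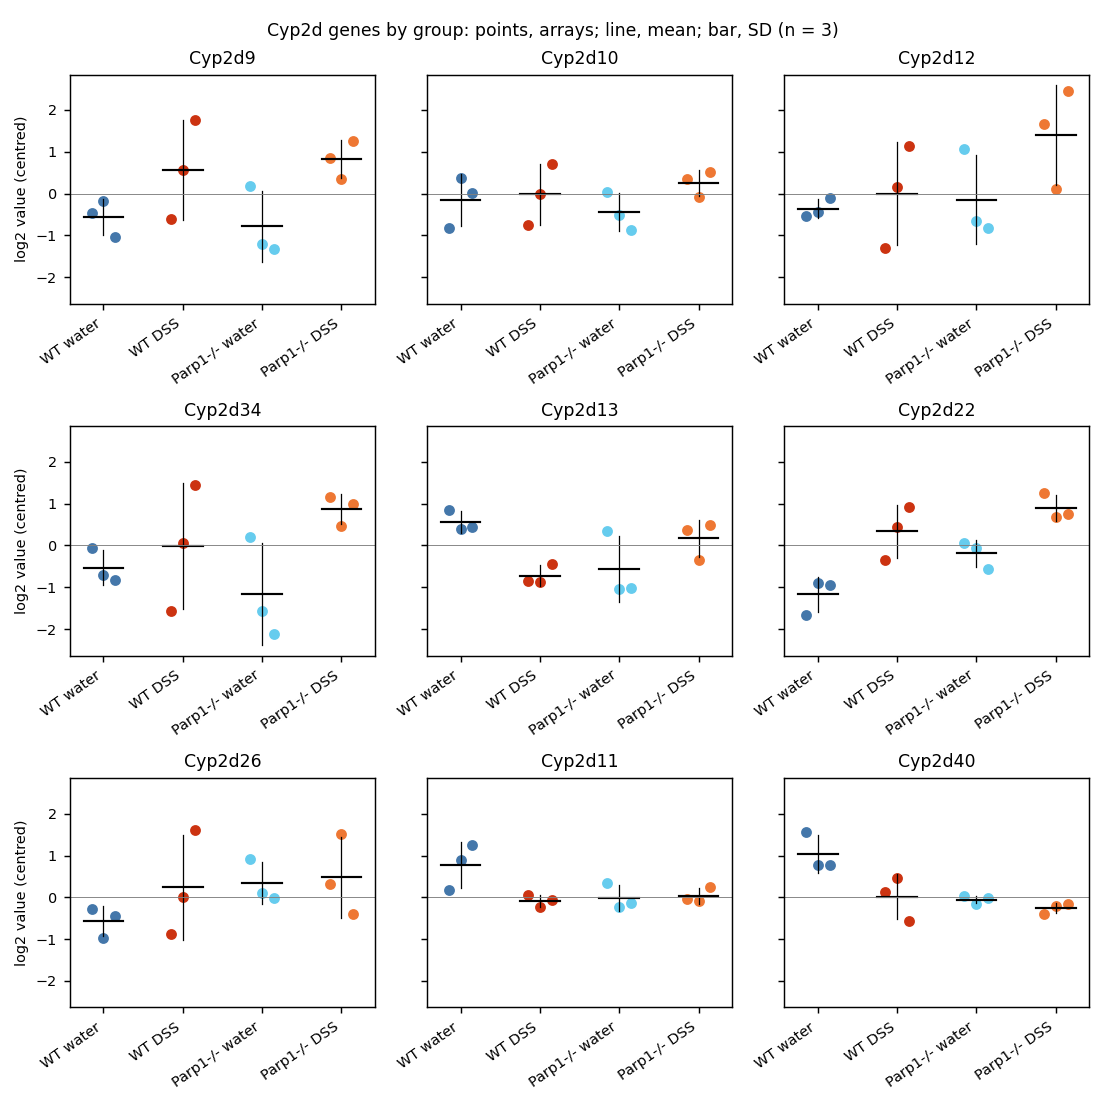
Centred log2 values of the 9 Cyp2d genes by group (points, arrays; line, mean; bar, SD; n = 3 mice). Cyp2d9, Cyp2d10, Cyp2d12 and Cyp2d34 have 1 Parp1-/- water array above the other 2, and Cyp2d40 is highest in wild-type water.

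The 7 Cyp2j genes form 1 row on chromosome 4. Cyp2j6, a fatty acid epoxygenase of the intestine, read -1.99, -0.97 and -1.32 on water and -0.98, -0.26 and 0.30 on DSS in wild-type mice, and 0.20, 0.46 and 0.56 on water and 0.45, 0.37 and -0.20 on DSS in Parp1-/- mice. Wild-type DSS 1 lay within the wild-type water range. Its DSS difference of 1.11 ± 0.34 in wild-type mice had an adjusted p of 0.051 and missed the threshold. Cyp2j8 read 0.55, 0.69 and 0.33 on water and -0.08, -0.18 and 0.02 on DSS in wild-type mice, without overlap, and fell by 0.60 ± 0.14 (adjusted p of 0.0197). It read -0.14, -0.14 and -0.30 on water and -0.01, 0.04 and 0.01 on DSS in Parp1-/- mice, with DSS above water and a difference of 0.21 that was not called.

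None of the 3 family 1 genes, the classic Ahr targets, was called for DSS. Cyp1a1 read -0.28, -0.19 and 0.06 on water and 0.47, 0.31 and -0.08 on DSS in wild-type mice, a difference of 0.37 ± 0.19 with an adjusted p of 0.212. In Parp1-/- mice it read 0.11, -0.24 and -0.06 in water and -0.18, 0.22 and 0.11 in DSS, a difference of 0.12 ± 0.19. The groups overlapped in both genotypes. Cyp1b1 read 0.76, 0.39 and 0.33 on water and 0.40, -0.05 and -0.10 on DSS in wild-type mice, which overlap. Cyp1a2 was at -0.54 ± 0.37 and 0.21 ± 0.37, and Cyp1b1, the Ahr target outside the liver, at -0.41 ± 0.17 and 0.06 ± 0.17, in wild-type and Parp1-/- mice.

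Other members of known role were not called for DSS in either genotype. Cyp2s1, an epithelial enzyme under Ahr control, was at -0.41 ± 0.51 in wild-type and 0.20 ± 0.51 in Parp1-/- mice, and its wild-type DSS arrays spread from -1.85 to 0.40. Cyp2w1, known from fetal and tumour colon, was at -0.67 ± 0.37 and 0.20 ± 0.37. Cyp2r1, a vitamin D hydroxylase, was at -0.22 ± 0.15 and 0.13 ± 0.15, and Cyp2u1, a fatty acid hydroxylase, at -0.07 ± 0.21 and -0.19 ± 0.21. The CAR target Cyp2b10 read 1.12, 0.12 and 0.34 on water and 1.53, 0.17 and -0.12 on DSS in wild-type mice, with 1 high array in each group. It was at 0.01 ± 0.38 and -0.13 ± 0.38, Cyp2d26 at 0.81 ± 0.60 and 0.15 ± 0.60, and Cyp2f2, the naphthalene oxidase of lung, at -0.50 ± 0.25 and -0.05 ± 0.25. Cyp4b1, which acts on fatty acids and furans, was at -0.13 ± 0.43 and -0.85 ± 0.43. Cyp2c23, a kidney arachidonic acid epoxygenase, was at -1.07 ± 0.37 in wild-type mice with an adjusted p of 0.0784, and the Cyp2a, Cyp2ab, Cyp2b, Cyp2g and Cyp2t members lay between -0.40 and 0.34.

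Taking all Parp1-/- arrays, DSS gave no call among the 71 members, where 2 of all genes were called (0.00938%). An unadjusted p under 0.05 was reached by 4 members, Cyp2e1, Cyp2d22, Cyp2d34 and Cyp2d9, against 2.86% of all genes. The DSS arrays lay wholly above the water arrays in 10 members (7.82% of all genes) and wholly below in 4 (4.70% of all genes). Their median difference was 0.06, and that of all genes 0.01. Across the 71 members the DSS differences of the 2 genotypes, which share no array, had a Pearson r of 0.463 and a Spearman rho of 0.224. Over all genes the same measures were 0.172 and 0.032. Cyp2e1 had the largest difference of the 71 in each genotype, at 3.51 and 2.57. These correlations are a description across genes that share arrays and paralogous probes. Signs agreed in 33 of 71 (46.5%), against 47.1% of all genes.

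**Figure D5:**
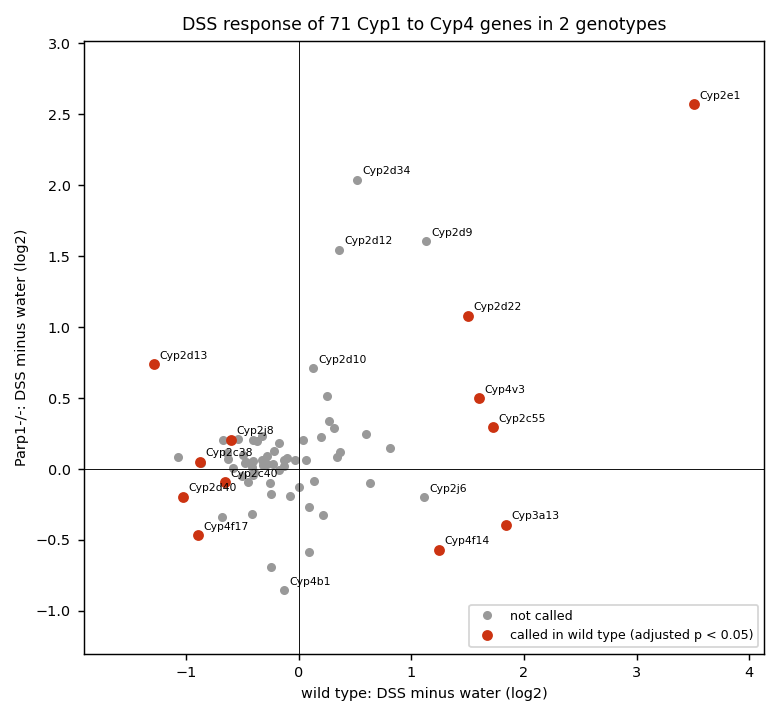
DSS minus water (log2) in wild-type (x axis) and Parp1-/- mice (y axis) for the 71 genes, with the 12 called in wild-type mice in red. Cyp2e1 and Cyp2d22 lie high on both axes, and Cyp3a13 and Cyp4f14 lie high on the x axis and below 0 on the y axis.

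The uninjured colon was compared between genotypes in water. Cyp3a13, Cyp2j6, Cyp4f14, Cyp4v3, Cyp4b1, Cyp2c55, Cyp2c68, Cyp2d22 and Cyp4f40 were higher in Parp1-/- mice, and 17 members were lower. The 26 calls by limma were 36.6% of the members, against 31.6% of all genes, with 17.9% of all genes called higher and 13.7% lower. The Parp1-/- arrays lay wholly above the wild-type arrays in 11 members (26.2% of all genes) and wholly below in 28 (29.2%), 55.4% of all genes taking both directions together. The median difference was -0.35 for the members and -0.07 for all genes. This comparison uses the same wild-type water arrays as the wild-type DSS comparison, and 5 of the 9 higher members and 5 of the 17 lower members were called in the same direction there.

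Cyp3a13 was 2.33 ± 0.40 higher (adjusted p of 0.00246), Cyp2j6 1.83 ± 0.34 higher (adjusted p of 0.00334) and Cyp4f14 1.78 ± 0.33 higher (adjusted p of 0.00346) in Parp1-/- water. The values given above do not overlap between the genotypes in water for any of the 3. Cyp4v3 was 1.55 ± 0.34 higher, Cyp2c55 1.29 ± 0.26 and Cyp2d22 0.98 ± 0.33. On its probe sets Cyp2c55 was 2.39 and 0.18 higher, so the call rests on 1 of them. Cyp4b1 read -0.89, 0.08 and -0.22 in wild-type water and 1.64, 1.19 and 0.76 in Parp1-/- water, without overlap, and was 1.54 ± 0.43 higher (adjusted p of 0.0215). In DSS its wild-type arrays read -0.72, -0.62 and -0.08 and its Parp1-/- arrays 0.88, 0.90 and -0.75, which overlap.

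Cyp2c68 read -0.37, -0.52 and -0.20 in wild-type water and 1.83, 0.76 and 0.15 in Parp1-/- water, and was 1.28 ± 0.35 higher (adjusted p of 0.0201). Of the 26 called members it alone kept its call without the 3 arrays of high smooth muscle genes, at 2.19 ± 0.35 (adjusted p of 0.043), which leaves 1 Parp1-/- water array, the one at 1.83, assumed to vary like the other groups. Cyp4f40 read -0.66, -1.16 and -0.72 in wild-type water and 0.30, 0.03 and 0.01 in Parp1-/- water, and was 0.96 ± 0.29 higher (adjusted p of 0.0277). In both genes the genotypes did not overlap in water.

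Of the 17 lower members, 14 belong to family 2, which holds 47 of the 71 members. Cyp2d13 fell by 1.13 ± 0.36 relative to wild type (adjusted p of 0.0336), with Parp1-/- water 1 at 0.34 and the other 2 arrays at -1.03 and -1.02. Cyp2d40 read 0.02, -0.16 and -0.02 in Parp1-/- water and was lower at -1.09 ± 0.28 (adjusted p of 0.0146). Cyp2j12 read 0.86, 0.97 and 0.41 in wild-type and -0.04, -0.23 and -0.32 in Parp1-/- water, a difference of -0.94 ± 0.23 (adjusted p of 0.0132). Neither Cyp2d40 nor Cyp2j12 overlapped between the genotypes.

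Cyp2c70, a bile acid hydroxylase of mouse liver, read 0.40, 0.72 and 0.67 in wild-type and -0.13, -0.42 and -0.28 in Parp1-/- water, a difference of -0.87 ± 0.26 (adjusted p of 0.0268). Cyp2d11 read 0.16, 0.90 and 1.25 against 0.34, -0.24 and -0.15, a difference of -0.79 ± 0.26 with overlapping groups. Cyp2b9 read 0.70, 0.45 and 0.67 against -0.02, -0.25 and -0.23, a difference of -0.77 ± 0.24. Apart from Cyp2d11 the groups of these genes did not overlap. Cyp2j13 read 1.17, 0.56 and 0.13 against -0.00, -0.10 and -0.13, a difference of -0.70 ± 0.24, Cyp2j8 was lower at -0.72 ± 0.14 and Cyp2c38 at -0.82 ± 0.22. The remaining 8 called members, Cyp1b1, Cyp2a5, Cyp2ab1, Cyp2c29, Cyp2c40, Cyp2j11, Cyp3a25 and Cyp4a29, lay between -0.62 and -0.47. Cyp2c29 was called as the mean of its probe sets, and neither passed alone (adjusted p of 0.0761 and 0.0581).

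The smell and pheromone receptor genes, not a P450 group, were lower in the same comparison in 389 of 1042 cases (37.3%). In 10 members, Cyp1b1, Cyp2a5, Cyp2b9, Cyp2c29, Cyp2c70, Cyp2j12, Cyp2j13, Cyp3a11, Cyp3a25 and Cyp4a29, the 3 wild-type water arrays and wild-type DSS 1 lay above the other 8 arrays, as in 15.3% of all genes. In 7, Cyp2c68, Cyp2j6, Cyp3a13, Cyp4f13, Cyp4f14, Cyp4f40 and Cyp4v3, they lay below, as in 16.4% of all genes. The 12 colonocyte markers, 11 of them called higher in Parp1-/- water, had a median difference of 1.71, and 12 of 16 housekeeping genes were called higher with a median of 1.55. With the per-array receptor median as covariate Cyp2c55 alone of the 26 kept its call (adjusted p of 0.0422), where 2.10% of all genes were called, and Cyp2j6 was at 0.54. After quantile normalization Cyp3a13, Cyp2j6, Cyp2j8 and Cyp2ab1 kept theirs, where 9.94% of all genes were called. The part of these array differences in the genotype calls was not tested further.

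Under DSS the genotypes gave no call among the members or among all genes (0% by limma), and 5 members and 2.78% of all genes had an unadjusted p under 0.05. These were Cyp2s1 at 1.17 ± 0.51, Cyp2d13 at 0.89, Cyp4a31 at -0.61, Cyp2b13 at -0.62 and Cyp4a14 at -0.43, each with an adjusted p of 0.872. Cyp2s1 read -1.85, -0.52 and 0.40 in wild-type DSS and 1.07, 0.63 and -0.17 in Parp1-/- DSS, which overlap. Cyp2c68 and Cyp2d13 lay wholly above wild type in Parp1-/- DSS (2.04% of all genes), and Cyp2b10, Cyp2t4 and Cyp3a44 wholly below (4.52%), 6.55% of all genes taking both directions together. Cyp2e1 differed by 0.04 ± 0.73 between the genotypes under DSS.

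The difference of the DSS responses was not called for any member, against 2.54% of all genes, and 14 members had an unadjusted p under 0.05 (17.5% of all genes). Cyp2d13 at 2.03, Cyp2j8 at 0.81 ± 0.20 (adjusted p of 0.0654), Cyp3a13 at -2.23, Cyp4f14 at -1.81 ± 0.46 (adjusted p of 0.0702) and Cyp2c55 at -1.43 (adjusted p of 0.0736) had the smallest p. Without wild-type DSS 1 the count was 8 (11.3% of the members), 3 higher and 5 lower, against 14.9% of all genes. The median over the members was 0.32 and over all genes 0.05.

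Genes that work with the P450 enzymes were also read. Of 5 measured electron partners, Cyb5a, cytochrome b5, rose by 1.22 ± 0.24 (adjusted p of 0.00804) and Cyb5r3, its reductase, by 0.94 (adjusted p of 0.0492) after DSS in wild-type mice, and none was called in Parp1-/- mice. P450 reductase itself was not analysed here. Of 13 regulators 4 rose and 1 fell in wild-type mice: Ahr by 1.21 ± 0.21, its partner Arnt by 2.34 ± 0.26, the oxidative stress factor Nfe2l2 by 2.18 ± 0.15 and the bile acid receptor Nr1h4 by 1.51 ± 0.40, while the Ahr repressor Ahrr fell by 0.71 ± 0.16. PXR (Nr1i2) was at 1.17 ± 0.50 with an adjusted p of 0.142. In Parp1-/- mice none of the 13 was called, with Ahr at 0.17, Arnt at -0.03 and Nr1i2 at 0.35. The responses of Arnt and Nfe2l2 differed between genotypes at -2.37 (adjusted p of 0.00843) and -2.33 (adjusted p of 0.00169). Over all genes 2.54% were called for that difference, and 0 of 21314 after quantile normalization. Its median was -1.42 over the 16 housekeeping genes, with 1 called lower, and -1.57 over the 12 colonocyte markers, with 6 called lower. The housekeeping list had 9 of 16 genes called higher after DSS in wild-type mice, with a median of 1.21. Of all genes 8.89% were called higher and 4.16% lower there.

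In water, 6 of the 13 regulators were higher and Ahrr was lower in Parp1-/- mice, among them Ahr at 1.45 ± 0.21 and Nr1i2 at 1.61 ± 0.50 (adjusted p of 0.031). That comparison called 17.9% of all genes and 12 of 16 housekeeping genes higher, and 13.7% of all genes lower. Of the heme genes, 2 of 11 rose after DSS in wild-type mice, Alad by 2.13 and Hmox2 by 1.15, and 3 were higher in Parp1-/- water. Among 7 epoxide hydrolases and Ahr targets outside the P450 family, Tiparp rose by 1.41 ± 0.32 in wild-type mice. Of 16 P450 genes of other families, Cyp27a1, the sterol hydroxylase of bile acid synthesis, rose by 2.13 ± 0.50 and Cyp39a1, an oxysterol hydroxylase, by 1.11 ± 0.27. No gene of these lists was called for DSS in Parp1-/- mice.

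The rule left out 12 probe sets of Cyp1 to Cyp4 genes: 6 with several symbols, 3 of pseudogenes and 3 whose names end in a letter. None of the 6 with a single symbol was called in any comparison.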

How the data were processed

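The authors deposited log2 values of 31693 probe sets on 12 arrays, 1 per mouse. They used software and a normalization not given in the sources used here. Probe sets had a median of 0 across the 12 arrays, so the table was centred. Log base and direction are not stated: base 2 and larger for more RNA were assumed. Symbols came from the platform's annotation (22586 probe sets with 1 symbol, 1756 with several, 7351 with none), and probe sets of a gene were averaged.

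Groups came from the genotype and treatment labels, and replicate numbers only name mice. limma 3.58.1 in R 4.3.3 fitted 1 model of 4 groups over 12 arrays, with 5 contrasts and Benjamini-Hochberg adjustment over 21314 genes. Calls required an adjusted p under 0.05. The model was tested on simulated data in which each gene had the same spread in all 12 arrays. In the deposited values the SD of an array was 0.67 to 0.87 in wild-type water and wild-type DSS 1. It was 0.26 to 0.39 elsewhere, so the simulation cannot check calls under such unequal spread. Tables and figures used Python 3.11.15, pandas 2.3.3 and matplotlib 3.10.9. The number of arrays limits the precision, and signal over background is unknown.

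Members and lists were chosen with earlier results of these data known. Named were the 20 of 28 called members with the largest change, with the arrays of a comparison that called them, then members of known role and the 4 of smallest p in each contrast. Alternatives were quantile normalization, equal array medians, single probe sets, trend and robust eBayes, array weights, fewer arrays, other thresholds, and the receptor median or smooth muscle mean of each array as a covariate.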

Additional observations from a re-analysis of the deposited data

How the results depend on the processing

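No paired analysis was possible because the labels carry no replicate numbers shared between groups. For DSS in wild-type mice the count of called members, 12 as reported, was 1 at an adjusted p under 0.01 (4.81% of all genes were called then), 0 after quantile normalization (0.971%), 26 with array weights (41.2%), 3 with only the arrays compared (3.01%), 7 with the receptor median as a covariate (10.4%) and 5 without the 3 arrays of high smooth muscle genes (4.80%). It was between 5 and 23 when 1 array was left out, with 23 when wild-type DSS 1 was dropped (32.2% of all genes), 5 for wild-type DSS 2 (5.68%), 7 for wild-type DSS 3 (8.03%) and 8 for the array labelled wild-type water 1 (10.4%). Cyp2c55, Cyp2e1 and Cyp3a13 were called in each of the 6 fits that leave out 1 array.

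For Parp1-/- against wild type in water, 26 as reported, the count was 6 at an adjusted p under 0.01 (11.4% of all genes), 5 after quantile normalization (9.94%), 2 with the receptor median (2.10%) and 6 with the smooth muscle mean as a covariate (7.92%), and 1 without the 3 arrays of high smooth muscle genes (0.690%), which leaves 1 Parp1-/- water array. It was between 7 and 20 when 1 array was left out, with 7 without Parp1-/- water 2 (13.8% of all genes) and 9 without Parp1-/- water 3 (14.2%). Cyp2c55, Cyp2j6, Cyp2j8, Cyp3a13, Cyp4f14 and Cyp4v3 were called in each fit that leaves out 1 array. With the receptor covariate Cyp2b9 turned to 0.26, Cyp2c70 to 0.25, Cyp2d22 to -0.18 and Cyp4f40 to -0.14. The receptor median does not overlap between the genotypes in water, so that fit cannot separate it from genotype.

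The comparisons with no called member stayed at 0 when 1 array was left out for DSS in Parp1-/- mice and for the genotypes in DSS, while the difference of the DSS responses ranged from 0 to 8: 8 without wild-type DSS 1 (14.9% of all genes), 2 without wild-type water 3 (2.02%), and 1 without wild-type DSS 3 (1.72%) or Parp1-/- water 1 (2.08%). That difference gave 2 with the receptor covariate (2.62%). On single probe sets it gave 1 call among the 74 of the members, against 578 of all 22586. Array weights gave 8 for DSS in Parp1-/- mice (6.84% of all genes), 24 for the genotypes in DSS (29.0%) and 22 for the difference (36.0%). The weights did not settle: wild-type DSS 2 received 964 and the other arrays at most 2.80. Over single members and settings, 578 results kept direction and side of the threshold, 284 lost their call, 19 gained 1 and 4 turned.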
